A study of Rattus norvegicus with 4 samples.

Results

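Reg3b and 7 genes of interleukin 6 family signalling (Il6, the receptor genes Il6st, Il6r and Cntfr, and the signalling genes Jak2, Stat3 and Socs3) were followed in the rat left ventricle on 4 oligonucleotide arrays. The members were all probe sets that the platform annotation gives to one of these 8 gene symbols. These were 12 of the 8799 probe sets on the array, and 8 of the 4736 genes with a probe set of 1 gene symbol. Total RNA of the left ventricle had been hybridised with 1 array for each of 4 groups. The groups were terminal heart failure, double transgenic rats that overexpress human renin and human angiotensinogen (dTGR), dTGR given losartan, which blocks the type 1 receptor of angiotensin II, and Sprague Dawley controls (SD control). The label of the terminal sample names no genotype of its own, although all 4 samples carry the same text on the transgenic rat, which becomes hypertensive, enlarges its heart and loses protein in the urine. The sources used here do not give ages, doses, the promoters of the transgenes or how many animals an array stands for. The genes were chosen with their levels on these arrays known, so their values are a description and carry no test, and 1 array per group gives no error between animals.

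Interleukin 6 and its relatives are cytokines that bind a receptor of their own, such as the interleukin 6 receptor (Il6r) or the ciliary neurotrophic factor receptor (Cntfr), and then signal through a shared subunit, gp130, encoded by Il6st. Gp130 activates JAK kinases, which phosphorylate the transcription factor STAT3, and STAT3 in turn induces its own inhibitor SOCS3. In the heart this route is known for its part in the growth and survival of cardiomyocytes under load. Reg3b encodes a small secreted C-type lectin, first described as pancreatitis-associated protein, that is induced by interleukin 6 type cytokines in several tissues.

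Values below are intensities on a linear scale, brought to a common trimmed mean. The 40th percentile of all values, 26.0, served as a floor, below which a value was treated as not measured. A difference counted as higher or lower when it reached 2-fold with at least 1 of both arrays above the floor, and where only 1 of both arrays was above it the fold is written as "at least", since the true one could be larger. Between 58.2% and 63.5% of the probe sets lay above the floor on each array. Cardiomyocyte markers bore out the labelled tissue, with 9 of 9 measured markers above the floor on all 4 arrays. Chips came from 2 lots, one used for the terminal and losartan arrays and the other for the dTGR and SD control arrays. Only the terminal array had a separate run day, and only the dTGR array a different fluidics protocol. The 3' over 5' ratio of Gapdh, a sign of RNA quality, was 1.28 on the terminal array, 1.73 on the dTGR array, 2.17 on the losartan array and 1.34 on the SD control array. That of hexokinase ran in another order, with 4.41 on the terminal array, 3.04 on the dTGR array, 1.29 on the losartan array and 3.57 on the SD control array. Of 7006 probe sets with 1 gene symbol, terminal heart failure had 345 above and 402 below SD control (426 and 304 after cyclic loess). In dTGR against SD control 400 were higher and 308 lower (237 and 530 after scaling to the same median). Losartan-treated dTGR had 128 higher and 288 lower than SD control (166 and 236 after cyclic loess). Against dTGR, terminal heart failure had 417 higher and 568 lower (656 and 298 after scaling to the same median, 504 and 432 after quantile normalization, 504 and 383 after cyclic loess). Losartan-treated dTGR had 293 higher and 528 lower than dTGR (458 and 335 after scaling to the same median, 384 and 436 after quantile normalization). Scaling to the same median put the median log2 difference of all probe sets at -0.18 in dTGR against SD control, 0.10 in terminal heart failure against dTGR and 0.13 in losartan-treated dTGR against dTGR, beside 0.05, -0.16 and -0.08 as scaled here.

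The rat Reg genes measured here lie near each other, and the bases just before their starts are shown because Reg3b, Reg3g and Reg1a all reached 2-fold above SD control in terminal heart failure. Each line gives the 250 bases before the gene's start, 5′ to 3′ on the gene's strand, from RefSeq on build GRCr8. Capitals mark matches, on either strand, to the STAT palindrome TTCNNNGAA, to the interleukin 6 response core CTGGGAA, or to the C/EBP type element TTNNGNAAT.
Reg3b, chr4:112419526-112419775, plus strand: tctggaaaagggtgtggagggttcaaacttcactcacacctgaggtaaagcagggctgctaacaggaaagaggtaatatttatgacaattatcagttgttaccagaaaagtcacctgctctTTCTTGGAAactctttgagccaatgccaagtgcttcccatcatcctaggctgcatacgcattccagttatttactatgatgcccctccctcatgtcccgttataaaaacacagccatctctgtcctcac
Reg3g, chr4:112484739-112484988, minus strand: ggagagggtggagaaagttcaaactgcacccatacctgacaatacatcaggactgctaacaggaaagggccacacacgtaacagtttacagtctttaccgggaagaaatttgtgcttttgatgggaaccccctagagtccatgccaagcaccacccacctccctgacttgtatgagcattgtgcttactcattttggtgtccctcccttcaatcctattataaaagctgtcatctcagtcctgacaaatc
Reg1a, chr4:112450216-112450465, plus strand: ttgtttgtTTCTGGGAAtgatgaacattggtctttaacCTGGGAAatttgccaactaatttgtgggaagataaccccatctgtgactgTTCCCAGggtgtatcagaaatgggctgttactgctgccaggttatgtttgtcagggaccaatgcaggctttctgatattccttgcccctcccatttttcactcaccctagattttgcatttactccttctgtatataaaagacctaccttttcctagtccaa
Reg3b held 1 match, the STAT palindrome TTCTTGGAA from 129 to 121 bases before the start. Reg1a held a STAT palindrome that overlaps one of its 3 matches to the interleukin 6 response core, and Reg3g held no match to any of these letters in this window. Reg3a, whose probe set was under the floor on every array, held a response core from 101 to 95 bases before the start. It also held a C/EBP type element from 203 to 195 bases before it. Among 27457 rat genes, 7.52% held the STAT palindrome in a window of this length, 9.33% the response core and 10.7% the C/EBP type element. In a global alignment, the window of Reg3b was 65.8% identical to that of Reg3g, 57.0% to that of Reg3a and 54.7% to that of Reg1a. The same alignment gave 44.7% to 49.1% for the 6 other members with a promoter in the table. Of these, Il6 held 1 match, a C/EBP type element from 152 to 144 bases before the start. Il6st, Il6r, Stat3, Socs3 and Jak2 held none in this window. These matches are letters in a sequence and were not tied to any measured binding. Bases outside the window were not searched, and it was not checked that transcription begins at the annotated starts.

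Reg3b showed the widest range of the members. Its 1 probe set, M98049_s_at, had an intensity of 3849 in terminal heart failure, 503 in dTGR, 27.1 in losartan-treated dTGR and 41.2 in SD control. The terminal array was highest, dTGR stood clearly between, and the losartan and SD control arrays lay close together and near the floor. Among the 7006 probe sets with 1 gene symbol, this put Reg3b above 98.3% of them on the terminal array, 89.7% on the dTGR array, 40.2% on the losartan array and 48.3% on the SD control array. Against SD control, Reg3b was 93.4-fold higher in terminal heart failure and 12.2-fold higher in dTGR. In losartan-treated dTGR its log2 difference from SD control was -0.61, short of 2-fold.

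Set against dTGR, Reg3b was 7.65-fold higher in terminal heart failure, and losartan-treated dTGR was 18.6-fold lower. Over all probe sets above the floor, the second of these was the lowest of 5058 differences, and the difference between terminal heart failure and SD control was the highest of 4685. Within a chip lot, terminal heart failure was 142-fold above losartan-treated dTGR and dTGR was 12.2-fold above SD control. The 18.6-fold difference between losartan-treated dTGR and dTGR was between lots. The terminal array was alone on its run day and the dTGR array alone in its fluidics protocol, and these cannot be told apart from their groups. The log2 difference of Reg3b between terminal heart failure and SD control stayed between 5.86 and 6.70 under the 7 other settings tried on member probe sets, and that between dTGR and SD control between 2.92 and 3.76. For terminal heart failure against losartan-treated dTGR it lay between 5.86 and 7.21. For losartan-treated dTGR against dTGR it lay between -4.26 and -2.92. The folds against the losartan array rest on its intensity of 27.1, just above the floor of 26.0. In a tissue RNA sample, more RNA per cell and more cells of a type cannot be told apart.

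**Figure D1:**
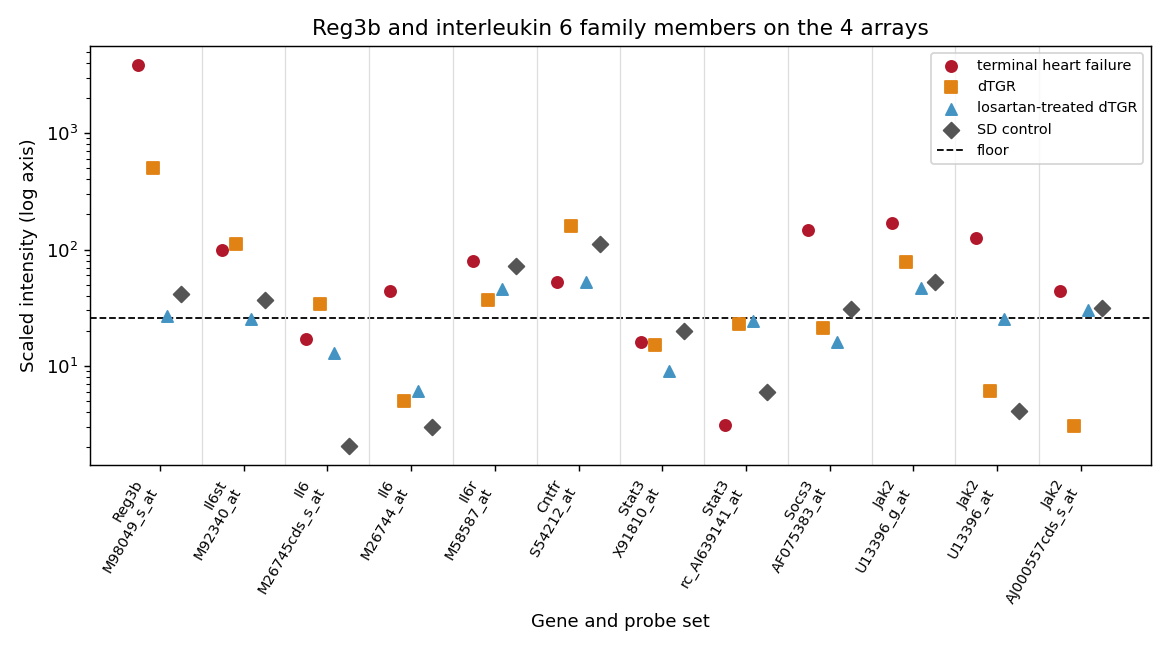
Scaled intensity (log axis) of the 12 member probe sets on the arrays of terminal heart failure (circles), dTGR (squares), losartan-treated dTGR (triangles) and SD control (diamonds), 1 point per array, with the floor of 26.0 as a dashed line. Reg3b spans 27.1 to 3849, the Socs3 and Jak2 points of terminal heart failure stand above the other arrays, and both Stat3 probe sets lie under the floor on every array. Heights of different probe sets cannot be compared with each other.

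The ligand Il6 was at the limit of measurement. Its probe set M26744_at had an intensity of 44.1 in terminal heart failure, 5.01 in dTGR, 6.07 in losartan-treated dTGR and 3.0 in SD control. Its other probe set, M26745cds_s_at, had 17.0 in terminal heart failure, 34.2 in dTGR, 13.0 in losartan-treated dTGR and 2.06 in SD control. Each was above the floor on 1 array only, and on a different one. Relative to SD control, the first was higher by at least 1.70-fold in terminal heart failure and the second by at least 1.31-fold in dTGR, neither bound reaching 2-fold. With the floor at the 25th percentile, these 2 log2 differences were 2.0 and 1.63, past 2-fold, and that of M26744_at was 1.07 after cyclic loess. The probe sets did not settle which of the disease arrays held more Il6.

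Il6st, which encodes the shared gp130 subunit, was high on both untreated disease arrays. Its intensity was 98.4 in terminal heart failure, 111 in dTGR, 25.1 in losartan-treated dTGR and 36.5 in SD control. Terminal heart failure and dTGR lay close together, SD control was lower, and the losartan array was just under the floor. Il6st was 2.70-fold higher in terminal heart failure and 3.05-fold higher in dTGR than in SD control. Losartan-treated dTGR was at least 4.28-fold lower than dTGR, where the bound comes from the floor. Between terminal heart failure and dTGR the log2 difference was -0.18. With the floor raised to the 60th percentile (66.2) the log2 differences from SD control were 0.57 for terminal heart failure and 0.75 for dTGR, under 2-fold, and that of losartan-treated dTGR from dTGR was -0.75.

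Il6r, the binding receptor for interleukin 6, followed another order than Il6st. Its intensity was 79.9 in terminal heart failure, 37.0 in dTGR, 45.7 in losartan-treated dTGR and 72.4 in SD control. The arrays of dTGR with and without losartan were low, and terminal heart failure and SD control were high and near each other. The log2 difference from SD control was 0.14 in terminal heart failure, -0.97 in dTGR and -0.66 in losartan-treated dTGR, none past 2-fold. In dTGR it was -1.21 after scaling to the same median and -1.20 after quantile normalization, past 2-fold. Terminal heart failure was 2.16-fold above dTGR, with a log2 difference of 0.27 when the floor was at the 60th percentile.

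Cntfr, the receptor for ciliary neurotrophic factor, was low on 2 arrays and high on the others. Its intensity was 52.6 in terminal heart failure, 161 in dTGR, 52.1 in losartan-treated dTGR and 111 in SD control. The low arrays were those of one chip lot and the high arrays those of the other. The log2 difference from SD control was -1.08 in terminal heart failure and -1.10 in losartan-treated dTGR, and both were short of 2-fold after quantile normalization (-0.95 and -0.96) and cyclic loess (-0.92 and -0.98). Within a chip lot, the log2 difference was 0.01 between terminal heart failure and losartan-treated dTGR and 0.53 between dTGR and SD control. Against dTGR it was -1.61 in terminal heart failure and -1.63 in losartan-treated dTGR, both between chip lots. Lot and group cannot be told apart for these arrays.

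Jak2, a kinase bound to gp130, was highest in terminal heart failure on all 3 of its probe sets. The probe set U13396_g_at had an intensity of 169 in terminal heart failure, 77.5 in dTGR, 46.9 in losartan-treated dTGR and 52.9 in SD control. The probe set U13396_at, from the same accession, had 126 in terminal heart failure, 6.04 in dTGR, 25.1 in losartan-treated dTGR and 4.08 in SD control. The probe set AJ000557cds_s_at had 43.7 in terminal heart failure, 3.02 in dTGR, 30.0 in losartan-treated dTGR and 31.6 in SD control. All 3 put the terminal array on top but ordered the other arrays differently, and dTGR was second on the first of them and last on the third. Against SD control, terminal heart failure was 3.19-fold higher on the first probe set, at least 4.84-fold higher on the second and 1.38-fold higher on the third. A 60th percentile floor gave the second a log2 difference of 0.93, under 2-fold, against SD control, dTGR and losartan-treated dTGR alike. The 2 probe sets past 2-fold share an accession and are not independent of each other. The first was also 2.18-fold above dTGR in terminal heart failure and 3.59-fold above losartan-treated dTGR, which shared its chip lot. For dTGR against SD control its log2 difference was 0.55.

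Stat3, the transcription factor downstream of gp130, was not measured above the floor. The probe set X91810_at had an intensity of 16.1 in terminal heart failure, 15.0 in dTGR, 9.06 in losartan-treated dTGR and 20.1 in SD control. The probe set rc_AI639141_at had 3.08 in terminal heart failure, 23.0 in dTGR, 24.1 in losartan-treated dTGR and 6.01 in SD control. No fold is given for Stat3, and its level was not detectable at this floor on any array.

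Socs3, the feedback inhibitor of the pathway, was clearly above the floor in terminal heart failure only. Its intensity was 149 in terminal heart failure, 21.0 in dTGR, 16.0 in losartan-treated dTGR and 31.0 in SD control. The SD control value lay slightly above the floor, and the values of dTGR and losartan-treated dTGR lay under it. Socs3 was 4.79-fold higher in terminal heart failure than in SD control, and at least 5.71-fold higher than in either dTGR or losartan-treated dTGR. Unlike Reg3b and Il6st, it was not above SD control on the dTGR array, where the log2 difference was -0.25, a bound set by the floor. The differences of terminal heart failure stayed past 2-fold under all 7 other settings, with the lowest log2 value at 1.17.

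Counted over the 12 probe sets, 9 were above the floor on at least 1 of the arrays of terminal heart failure and SD control, and of these 5 were at least 2-fold higher and 1 lower. Over all probe sets 7.36% were higher and 8.58% lower. Of 8 in dTGR against SD control, 2 were higher and 0 lower, beside 7.98% higher and 6.14% lower over all probe sets. Of 7 in losartan-treated dTGR against SD control, 0 were higher and 1 lower (2.73% and 6.15% over all). The genes were chosen on these comparisons, and nothing is read from the counts beyond their size. The median log2 difference from SD control over the measured member probe sets was 1.43 in terminal heart failure, 0.46 in dTGR and -0.49 in losartan-treated dTGR. Over all probe sets it was -0.11 in terminal heart failure, 0.05 in dTGR and -0.02 in losartan-treated dTGR.

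Against dTGR, terminal heart failure had 5 of 10 measured member probe sets higher and 1 lower, where 8.28% and 11.3% of all probe sets were. In losartan-treated dTGR against dTGR, 0 of 7 were higher and 3 lower (5.79% and 10.4% over all), the lower ones being Reg3b, Il6st and Cntfr. In terminal heart failure against losartan-treated dTGR, arrays of the same chip lot, 5 of 9 were higher and 0 lower (8.94% and 6.8% over all). The higher ones were Reg3b, Il6st, Socs3 and the 2 Jak2 probe sets of one accession. These comparisons share arrays and are not independent of each other.

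**Figure D2:**
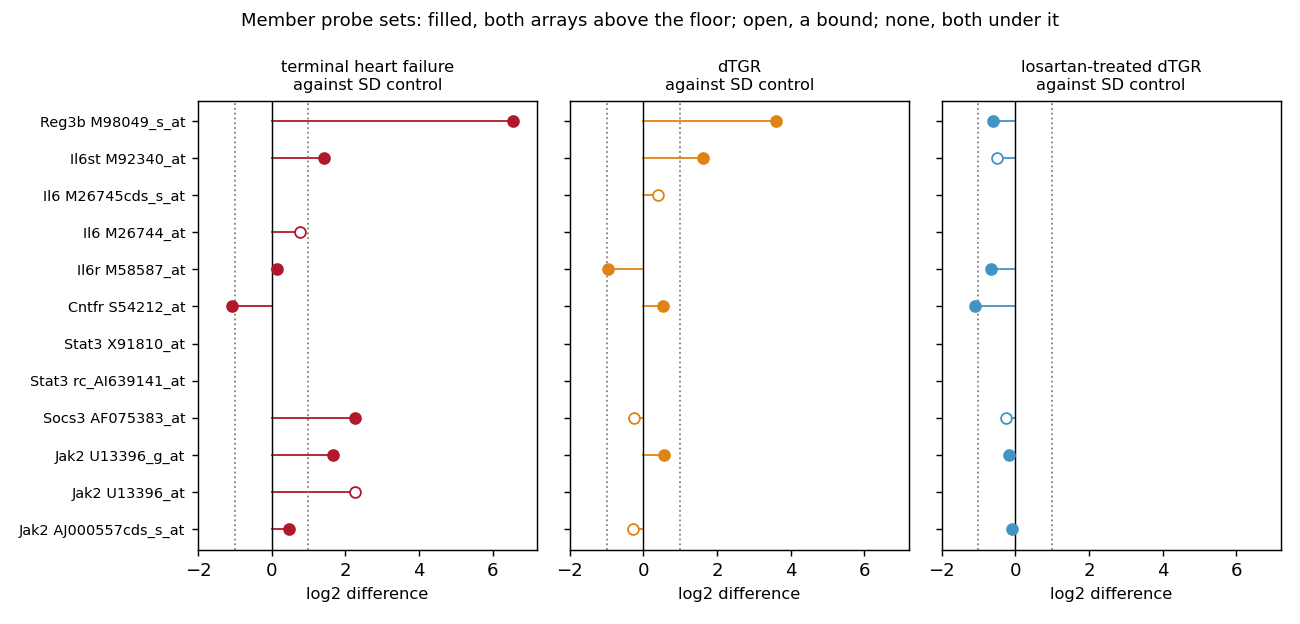
Log2 difference from SD control of each member probe set in terminal heart failure, dTGR and losartan-treated dTGR, 1 panel each. Filled points have both arrays above the floor, open points are bounds, no point means that both arrays were under it, and dotted lines mark 2-fold. Reg3b lies at 6.55, 3.61 and -0.61, and Socs3 and 2 of the 3 Jak2 probe sets pass 2-fold in the terminal panel and in neither of the others.

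The remaining genes of the pathway were taken from lists of ligands, receptors, kinases and STAT factors, inhibitors, the MAPK and PI3K arm of gp130, and genes known to respond to STAT3 or interleukin 6, with each gene represented by its brightest probe set. The lists also hold the members, and the background over all genes was 6.38% higher and 8.4% lower in terminal heart failure against SD control. In dTGR against SD control it was 7.69% higher and 5.87% lower, and in losartan-treated dTGR against SD control 2.24% and 4.86%.

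Of the ligand list, 4 genes were on the array. Lif, leukemia inhibitory factor, had an intensity of 23.0 in terminal heart failure, 108 in dTGR, 46.7 in losartan-treated dTGR and 45.9 in SD control. It was 2.35-fold higher in dTGR than in SD control and stood under the floor in terminal heart failure, at least 4.14-fold below dTGR. Ctf1, the gene of cardiotrophin 1, a ligand first found through its growth effect on cardiomyocytes, had 54.4 in terminal heart failure, 113 in dTGR, 61.6 in losartan-treated dTGR and 72.1 in SD control. Both ligands were thus highest on the dTGR array and lowest on the terminal array. Cntf, ciliary neurotrophic factor, was under the floor on all 4 arrays. Of the 2 ligands measured in terminal heart failure against SD control 0 passed 2-fold, and of the 3 in dTGR against SD control 1 was higher. Against dTGR, terminal heart failure had 0 of 3 higher and 2 lower, where 7.69% and 11.8% of all genes were.

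The 4 genes of the receptor list were Il6st, Il6r, Cntfr and Lifr, the receptor for leukemia inhibitory factor. Lifr was near the floor, with 13.0 in terminal heart failure, 33.1 in dTGR, 14.1 in losartan-treated dTGR and 26.0 in SD control. Terminal heart failure had 1 of the 4 above SD control, Il6st, and 1 below it, Cntfr. In dTGR against SD control 1 was higher and 0 lower, and in losartan-treated dTGR against SD control 0 were higher and 1 lower.

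Among JAK kinases and STAT factors, 9 genes were on the array and 5 were measured in terminal heart failure against SD control. Of these Jak2 was higher and Stat2, a factor of the interferon response, was lower, at 45.5 in terminal heart failure, 118 in dTGR, 148 in losartan-treated dTGR and 112 in SD control. Stat2 was low on the terminal array alone, 2.46-fold below SD control. Jak1, another kinase bound to gp130, had 75.1 in terminal heart failure, 99.0 in dTGR, 65.0 in losartan-treated dTGR and 95.8 in SD control, with no pair of arrays 2-fold apart. Stat5a, a related factor, was above the floor on the dTGR array alone (62.7), at least 2.41-fold above SD control. The list had 1 of 6 measured genes higher and 0 lower in dTGR against SD control, and 0 of 5 either way in losartan-treated dTGR.

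Of 10 measured inhibitors of JAK-STAT signalling, terminal heart failure had 2 above SD control and 0 below. Beside Socs3 this was Ptpn2, a phosphatase that acts on JAK kinases and STAT factors, with 96.1 in terminal heart failure, 78.1 in dTGR, 40.6 in losartan-treated dTGR and 27.1 in SD control. Ptpn2 was 3.55-fold higher in terminal heart failure and 2.88-fold higher in dTGR than in SD control, with the SD control value just above the floor. In dTGR against SD control 2 of 10 were higher and 1 lower. Socs2, another member of the SOCS family, was at least 2.02-fold higher there, with 29.1 in terminal heart failure, 52.6 in dTGR, 47.0 in losartan-treated dTGR and 24.0 in SD control. Pias3, an inhibitor named for its binding to STAT3, was the lower one, with 65.5 in terminal heart failure, 48.4 in dTGR, 61.5 in losartan-treated dTGR and 104 in SD control. In losartan-treated dTGR 0 of 10 passed 2-fold either way.

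In the MAPK and PI3K arm, 0 of 7 measured genes were higher or lower in terminal heart failure than in SD control on the probe sets used. The list median was -0.62 beside -0.14 over all genes. Other probe sets did not all stay within 2-fold. Map2k1 had a log2 difference of 0.41 on the set used and -1.19 on another, and Akt1 had -0.62 and -1.20. For dTGR against SD control, Map2k1 had -0.09 on the set used and -1.97 on another. In dTGR 0 were higher and 3 lower on the probe sets used. Mtor, the growth-regulating kinase, was 2.14-fold below SD control in dTGR. Sos1, an exchange factor for Ras, was 2.07-fold lower on the probe set used and had a log2 difference of -0.36 on another. Pik3r1, a regulatory subunit of PI3K, was at least 2.11-fold lower on the probe set used and had a log2 difference of 0.98 on another, so its direction was not settled.

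Genes known to respond to STAT3 or interleukin 6 formed the largest list. Terminal heart failure had 15 of 28 measured genes above SD control by 2-fold or more and 1 below, with a list median of 1.13 on the log2 scale. Lcn2, an iron-binding protein of inflammation, had 1467 in terminal heart failure, 154 in dTGR, 147 in losartan-treated dTGR and 99.1 in SD control. It was 14.8-fold higher in terminal heart failure than in SD control, while the other 3 arrays were within 2-fold of each other. Timp1, an inhibitor of matrix metalloproteinases, had 2416 in terminal heart failure, 595 in dTGR, 285 in losartan-treated dTGR and 193 in SD control. Timp1 was thus highest on the terminal array and next on the dTGR array, with log2 differences from SD control of 3.65 in terminal heart failure and 1.63 in dTGR. Spp1, the gene of osteopontin, had 384 in terminal heart failure, 86.0 in dTGR, 12.0 in losartan-treated dTGR and 4.08 in SD control, the last 2 under the floor. Ccnd1, a cyclin of the G1 phase, was the lower gene, 2.75-fold below SD control, although another of its probe sets had a log2 difference of 0.05.

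In dTGR 8 of 30 measured genes of this list were higher than in SD control and 0 lower, with a median of 0.58. Besides Timp1 and Spp1, Hmox1, the gene of an inducible heme oxygenase, was 2.88-fold higher, with 1079 in terminal heart failure, 673 in dTGR, 227 in losartan-treated dTGR and 233 in SD control. Its other probe set had a log2 difference from SD control of 1.55 in dTGR. In losartan-treated dTGR that set was at -1.42, where the set used was at -0.04. In losartan-treated dTGR 1 of 27 was higher than in SD control and 2 were lower, with a median of -0.09. Cebpb, a transcription factor of the acute phase, was the higher one, 3.49-fold, with 849 in terminal heart failure, 221 in dTGR, 278 in losartan-treated dTGR and 79.5 in SD control. Its other probe set was under the floor on both arrays of that comparison. Junb, an immediate early factor, and Pla2g2a, a secreted phospholipase, were the lower ones, at 2.52-fold and 2.16-fold.

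Against dTGR, 10 of 30 measured target genes were higher in terminal heart failure and 1 was lower, with a median of 0.54 beside -0.18 over all genes. Serpina3n, an acute phase protease inhibitor, was at least 5.12-fold higher there, with 133 in terminal heart failure, 17.0 in dTGR, 48.5 in losartan-treated dTGR and 51.6 in SD control. Like Socs3, it was under the floor in dTGR and high on the terminal array alone. The lower gene was Fga, a fibrinogen chain, above the floor on the dTGR array alone (73.1). Fgg, another fibrinogen chain, was likewise above it on the dTGR array alone (46.2), while the third, Fgb, was under it on all 4 arrays. In losartan-treated dTGR against dTGR, 1 of 28 was higher and 8 were lower, where 5.9% and 9.5% of all genes were. In terminal heart failure against losartan-treated dTGR, within a chip lot, 15 of 28 were higher and 1 was lower, where 7.44% and 7.35% of all genes were. The list overlaps the inhibitor list in Socs3 and was put together with earlier results of these arrays known.

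**Figure D3:**
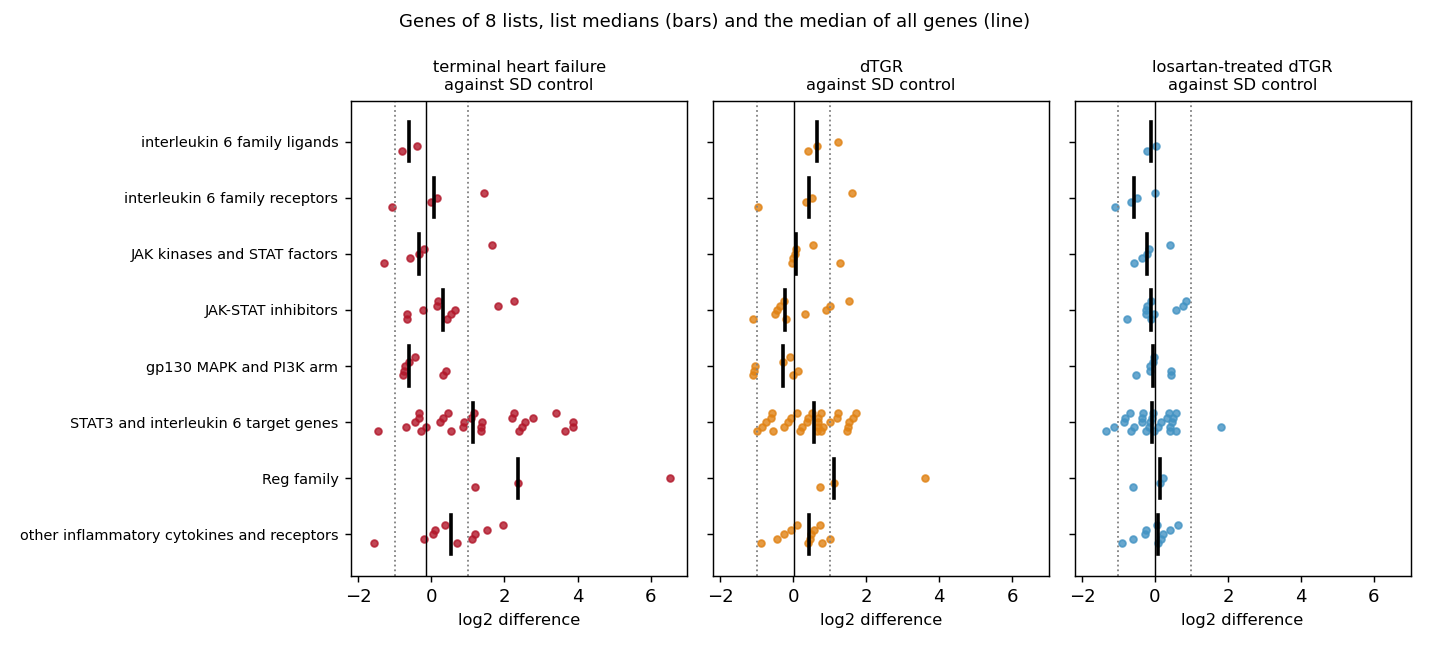
Log2 difference from SD control of the measured genes of 8 lists in terminal heart failure, dTGR and losartan-treated dTGR, with 1 point per gene, the list median as a thick bar, the median of all genes as a thin line and 2-fold as dotted lines. The list of STAT3 and interleukin 6 target genes has medians of 1.13, 0.58 and -0.09, while the receptor list and the list of JAK kinases and STAT factors spread to both sides of 0 in terminal heart failure.

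The Reg genes next to Reg3b on chromosome 4 were also compared. Reg3g, a close relative of Reg3b, had an intensity of 306 in terminal heart failure, 99.2 in dTGR, 65.4 in losartan-treated dTGR and 59.2 in SD control. It had the same 2 arrays on top as Reg3b in a narrower range, 5.17-fold higher in terminal heart failure and with a log2 difference of 0.74 in dTGR. Reg1a, another secreted lectin of the family, had 59.8 in terminal heart failure, 56.0 in dTGR, 30.1 in losartan-treated dTGR and 22.1 in SD control. Relative to SD control it was higher by at least 2.30-fold in terminal heart failure and at least 2.15-fold in dTGR. Reg3a was under the floor on all 4 arrays. The Reg3b and Reg1a probe sets end in _s_at, a suffix Affymetrix gives to sets whose probes may match more than 1 transcript, so signal shared among these relatives cannot be separated here.

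The genes whose pattern was most like that of Reg3b were found by Pearson correlation of log2 intensity over the 4 arrays, among 267 other probe sets that had a range of at least 4-fold, lay above the floor on at least 2 arrays and belonged to no predicted gene. They were Ccl2 (r = 0.999), Pdlim5 (0.998), Errfi1 (0.997), Atf3 (0.996) and Slc1a1 (0.993). With 4 points high values come easily, and 49 of the 267 had r of at least 0.9. Ccl2, a chemokine that draws monocytes, had 288 in terminal heart failure, 140 in dTGR, 53.7 in losartan-treated dTGR and 65.3 in SD control. Its other probe set gave 322 in terminal heart failure, 166 in dTGR, 111 in losartan-treated dTGR and 82.9 in SD control. Atf3, a stress-induced transcription factor with 1 probe set, had 528 in terminal heart failure, 168 in dTGR, 49.4 in losartan-treated dTGR and 49.2 in SD control. Pdlim5, a Z disc protein, had 173 in terminal heart failure, 88.9 in dTGR, 19.1 in losartan-treated dTGR and 30.1 in SD control, and its other probe set also had terminal heart failure first (404) and dTGR next (101). Errfi1, an inhibitor of the EGF receptor, did not hold on a second probe set, where dTGR was lowest (31.9, against 181 in terminal heart failure, 56.4 in losartan-treated dTGR and 44.7 in SD control). Slc1a1, a glutamate transporter, also did not hold on a second probe set. That set had 185 in terminal heart failure, 62.6 in dTGR, 45.2 in losartan-treated dTGR and 68.1 in SD control.

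**Figure D4:**
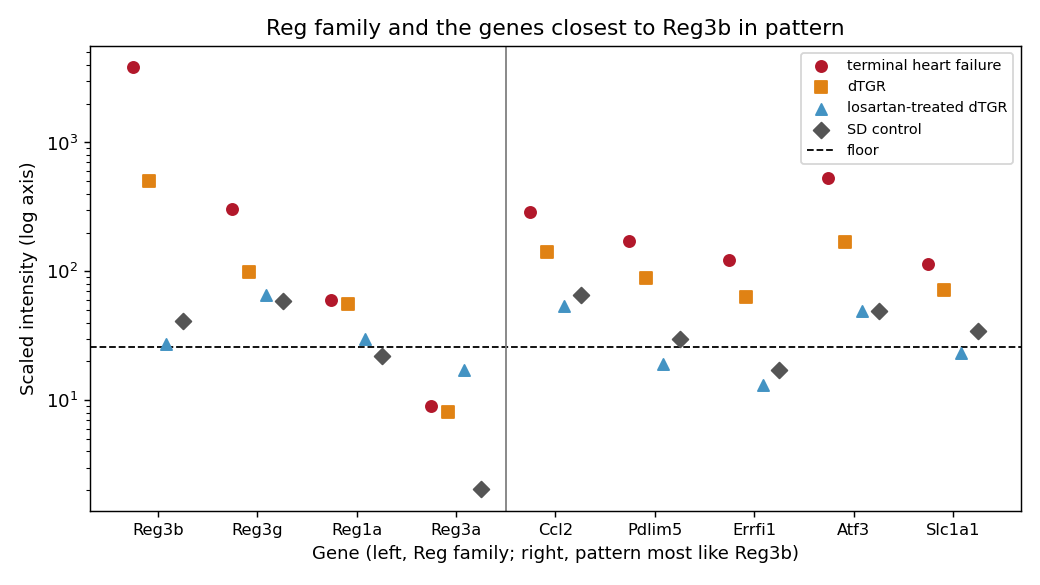
Scaled intensity (log axis) of the Reg family genes (left of the line) and of the 5 genes closest to Reg3b in pattern (right), with 1 point for each of the 4 arrays and the floor as a dashed line. Terminal heart failure and dTGR are the highest arrays for every gene shown except Reg3a, which lies under the floor. The points of a gene can be compared with each other, not with those of another gene.

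Marker levels of other cell types differed between the arrays, and their order was not the same from list to list. The sums below add all values of a list, also those under the floor. On the losartan array 0 of 5 neutrophil markers and 2 of 7 T and B lymphocyte markers were above it. Of 10 macrophage markers 6 were on the array and 5 were above the floor on every array, with a summed intensity of 4469 in terminal heart failure, 2211 in dTGR, 1562 in losartan-treated dTGR and 1475 in SD control. The sixth, Csf1r, the receptor that defines the lineage, was under the floor on all 4 arrays. Of 10 neutrophil markers 5 were on the array, and their sum was 190 in terminal heart failure, 124 in dTGR, 64.2 in losartan-treated dTGR and 54.3 in SD control. S100a8, abundant in neutrophils, had 90.5 in terminal heart failure, 42.8 in dTGR, 4.01 in losartan-treated dTGR and 10.1 in SD control. Its partner S100a9 had 77.9 in terminal heart failure, 8.03 in dTGR, 20.1 in losartan-treated dTGR and 27.1 in SD control. Cxcr2, a chemokine receptor, had 1.09 in terminal heart failure, 59.3 in dTGR, 11 in losartan-treated dTGR and 4.05 in SD control, and Mmp8 and Mmp9 were under the floor on all 4 arrays. The macrophage and neutrophil sums were highest on the terminal array and next on the dTGR array, as Reg3b was. The single neutrophil markers did not all share that order. Of the macrophage markers, Lyz2, C1qb, Lgals3 and Cd14 did. C1qc did not, with 417 in terminal heart failure, 153 in dTGR, 161 in losartan-treated dTGR and 203 in SD control. Endothelial markers summed to 671 in terminal heart failure, 975 in dTGR, 839 in losartan-treated dTGR and 1237 in SD control. T and B lymphocyte markers summed to 141 in terminal heart failure, 258 in dTGR, 154 in losartan-treated dTGR and 268 in SD control. Both of these sums were lowest on the terminal array and highest on the SD control array. Single markers did not all share this order. Of the endothelial ones, Cav1 did, with 227 in terminal heart failure, 507 in dTGR, 400 in losartan-treated dTGR and 894 in SD control. Pecam1 was highest in terminal heart failure (248, against 141 in SD control), and Kdr in losartan-treated dTGR (246). Flt1 had 133 in both terminal heart failure and dTGR, 34.5 in losartan-treated dTGR and 80.9 in SD control. The cardiomyocyte sum was 89200 in terminal heart failure, 183832 in dTGR, 128226 in losartan-treated dTGR and 97273 in SD control. The highest deposited value was 49747 on the dTGR array, 20728 on the terminal, 28463 on the losartan and 22575 on the SD control array. The dTGR array was alone in its fluidics protocol, which cannot be told apart from its group for this sum. Fibroblast sums lay between 13473 and 15458 on all arrays. Dcn, the largest part of each fibroblast sum, had 11486 in terminal heart failure and 7671 in SD control. Postn was also higher in terminal heart failure (104) than in SD control (15.0, under the floor). The other fibroblast markers were lower in terminal heart failure than in SD control. Among them were Col1a1 (1006 against 2163), Col3a1 (948 against 3811) and Lum (97.1 against 309). The part of these cell types in the members' levels was not tested. Of 12 markers of the exocrine pancreas, a tissue where Reg3b is known, 11 were on the array and 6 of these were under the floor on all 4 arrays, among them Amy2a3 (amylase), Cela1 (elastase) and Ctrb1 (chymotrypsinogen). Pnlip (pancreatic lipase) and Clps (colipase) were above it on all 4 arrays, and Prss1 (trypsinogen) on the terminal array alone, with 43.9, against 21.0 in SD control. Cpa1 (carboxypeptidase) was above it on the dTGR array alone (44.2), and Cel (carboxyl ester lipase) on the dTGR (40.6) and SD control (34.8) arrays. The pancreas sum was 212 in terminal heart failure, 355 in dTGR, 182 in losartan-treated dTGR and 215 in SD control.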

How the data were processed

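For the rat genome U34 array A, the authors deposited linear intensities, 1 for each probe set on each array. The software that made these intensities is not given in the sources used here. Most deposited values under 32 (13625 of 15281 from 1 up) carry decimals of a day and month form, as a spreadsheet would write, and were used as they stand. Per the file headers, instrument records gave chip lot, fluidics protocol and run day.

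Arrays were brought to the average of their 4 trimmed means (2% left out at each end), the 40th percentile (26.0) was used as a floor, and differences were taken on the log2 scale. Comparisons across genes left out 59 control probe sets, 1426 without a symbol and 308 with several, out of 8799. The identifiers of 6985 of the 7006 kept matched the rat gene table, with 0 symbols to update. For a list gene, the brightest probe set on average was used. With 1 array per group no test was made in the 6 comparisons, and the number of arrays limits the precision. Named genes were all members, up to 3 genes per list and direction past 2-fold in the comparisons with SD control and of terminal heart failure with dTGR, and the 5 genes most like Reg3b. Cntf, Lifr, Jak1, Reg3a, Fgb, Fgg, Map2k1, Akt1 and the markers were named after their values were seen. Members and lists were chosen with earlier results of these data known. Alternatives were scaling to the same median, quantile normalization, cyclic loess (limma 3.58.1), floors at the 25th and 60th percentile or none, the median over probe sets per gene, and, added after seeing the data, low values read with 1 decimal. Promoter windows came from RefSeq (GRCr8) and were aligned with Biopython 1.88. Scaling, floor and calls were tested on simulated data. The simulated arrays held no noise and the changed probe sets lay well above the floor, so values near the floor were not covered.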

Additional observations from a re-analysis of the deposited data

How the results depend on the processing

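No paired analysis was possible because each group had 1 array, and for the same reason no replicate could be left out. Of 50 measured differences between arrays over the member probe sets, 23 were past 2-fold, and 0 reversed under the 7 other settings. Reg3b, Socs3 and Jak2 on U13396_g_at kept their calls throughout, whereas the calls of Il6st, Il6r, Cntfr, Il6 and the other Jak2 probe sets depended on the setting. Values near the floor limit these data, and the cause of the changes below was not tested beyond the setting itself.

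With the floor at the 60th percentile, 3 member probe sets were higher in terminal heart failure against SD control, 3 against dTGR and 3 against losartan-treated dTGR, 1 was higher in dTGR against SD control, and 0 were lower in terminal heart failure or losartan-treated dTGR against SD control. With it at the 25th percentile, 2 were higher in losartan-treated dTGR against SD control and 2 against dTGR, and dTGR had 4 higher and 1 lower against SD control. Terminal heart failure then had 3 lower against dTGR and 1 lower against losartan-treated dTGR. Without a floor, losartan-treated dTGR had 4 higher and 2 lower against SD control and 2 higher against dTGR, dTGR had 4 higher and 1 lower against SD control, and terminal heart failure had 3 lower against dTGR and 1 lower against losartan-treated dTGR. Quantile normalization and cyclic loess each left 0 lower in terminal heart failure and 0 lower in losartan-treated dTGR against SD control. In dTGR against SD control, quantile normalization and scaling to the same median each gave 1 lower. Counts over all probe sets with 1 gene symbol moved with the floor as well. For terminal heart failure against SD control they were 345 higher and 402 lower of 4685 as scaled here. With the 60th percentile floor they were 217 and 205 of 3264, and with the 25th 582 and 656 of 5743. Without a floor they were 1022 and 1040 of 6990. Nothing is read from the member counts beyond their size.

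The list counts below are likewise given for their size, since the counts over all probe sets moved with the setting too. Over all pathway lists, terminal heart failure had 25 of 68 measured genes above and 4 below SD control, where 6.38% and 8.4% of all genes were. The lower count was 1 with the 60th percentile floor and 9 without a floor. In dTGR against SD control the counts of 16 higher and 4 lower became 9 and 8 after scaling to the same median and 25 and 8 without a floor. The higher count was 6 with the 60th percentile floor, and the lower count was 2 with that floor, 2 after cyclic loess, 2 with the median of probe sets and 7 with the 25th percentile floor. In losartan-treated dTGR against SD control the 1 higher gene became 3 with the 25th percentile floor, 8 without a floor and 0 with the median of probe sets, and the 3 lower genes became 1 after quantile normalization, 1 with the 60th percentile floor and 9 without a floor. In terminal heart failure against dTGR the 15 higher became 23 after scaling to the same median, and the 6 lower became 13 with the 25th percentile floor, 1 with the 60th and 15 without a floor. In losartan-treated dTGR against dTGR the 2 higher became 6 with the 25th percentile floor, 8 without a floor and 1 with the median of probe sets, and the 13 lower became 20 with the 25th percentile floor, 7 with the 60th and 22 without a floor. In terminal heart failure against losartan-treated dTGR the 4 lower became 9 without a floor. Reading low values with 1 decimal, a setting chosen after seeing the data, left every one of these counts within 1.5 times. As scaled here, 74 list genes were measured in dTGR against SD control, where 7.69% of all genes were higher and 5.87% lower. In losartan-treated dTGR against SD control 67 were measured, beside 2.24% and 4.86%. Against dTGR, 74 were measured in terminal heart failure (7.69% and 11.8%) and 70 in losartan-treated dTGR (5.9% and 9.5%). In terminal heart failure against losartan-treated dTGR 67 were measured (7.44% and 7.35%).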

Other observations

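Other inflammatory cytokines and their receptors were listed beside the interleukin 6 family, and 19 of 21 were on the array. In terminal heart failure 4 of 10 measured genes were at least 2-fold higher than in SD control and 1 was lower, where 6.38% and 8.4% of all genes were. Ccl2, the monocyte chemokine, was 3.88-fold higher on its brighter probe set. Nfkbia, the inhibitor that NF-kB itself induces, had an intensity of 607 in terminal heart failure, 312 in dTGR, 223 in losartan-treated dTGR and 212 in SD control. Tnfrsf1a, a receptor for tumour necrosis factor, had 488 in terminal heart failure, 284 in dTGR, 178 in losartan-treated dTGR and 214 in SD control. The terminal array was thus highest for all of these. Tgfb1, the gene of transforming growth factor beta 1, was the lower one, with 21.0 in terminal heart failure, 42.1 in dTGR, 41.6 in losartan-treated dTGR and 77.3 in SD control. In dTGR 1 of 12 was higher than in SD control and 0 lower, beside 7.69% and 5.87% of all genes. In losartan-treated dTGR 0 of 10 passed 2-fold either way, beside 2.24% higher and 4.86% lower over all genes.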
